A study of Mus musculus with 11 samples.

Results

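Csf1r, Cd68, Adgre1, Mrc1, Cd163, Ms4a7, Lyz2, Mertk, Timd4 and Vsig4 are genes by which tissue macrophages are recognized, and they were followed in skin and small intestine (SI) of mice with imiquimod (IMQ)-induced psoriatic inflammation. The 10 genes were taken by name, as established macrophage marks, out of 45777 genes with read counts, and each was found in the table by its symbol. They were chosen with earlier results of these data known, so the counts called among them do not test the set as a whole. The RNA came from whole tissue of BALB/c mice, for which the labels name no engineered allele, and the comparison asks what topical IMQ, a Toll-like receptor 7 agonist, does in the treated skin and in the SI. Mice of 8 to 10 weeks of age were shaved, and their back and right ear received 62.5 mg of cream each day for 5 to 8 days, either 5% IMQ (Aldara) or Vaseline in the control groups. IMQ and the rest of its cream therefore cannot be told apart, and IMQ below stands for the Aldara treatment. Skin gave 3 control libraries (1 to 3) and 3 IMQ libraries (4 to 6), and SI gave 3 control libraries (7 to 9) and 2 IMQ libraries (10 and 11). The labels do not say that the libraries of a group came from separate mice, do not say whether skin and SI libraries came from the same mice, do not give the sex or the exact number of treatment days of a library, and do not name the stretch of SI, so the p-values measure the spread between these samples only.

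Macrophages reside in nearly every tissue, where they engulf dead cells and microbes, and most of them need signals through the colony-stimulating factor 1 receptor to survive. In skin they lie in the dermis beside Langerhans cells of the epidermis, whereas in the SI most lie in the lamina propria under the epithelium and are replenished to a large part by blood monocytes. Long-lived residents often carry Timd4 and other receptors for dying cells, and recently arrived cells acquire F4/80, the product of Adgre1, as they mature.

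Start regions are shown here for 4 genes that IMQ raised or lowered in at least 1 tissue (Cd68, Ms4a7, Lyz2 and Timd4), for Vsig4, which had no read in SI, and for Lyz1, so that Lyz2 can be set beside its duplicate. Each line gives the 250 bases before a RefSeq start site (GRCm38.p6), read 5′ to 3′ on the strand of the gene, and capitals mark GGAAGT, a core to which ETS factors such as PU.1 bind, or its reverse complement ACTTCC. The windows are chr11:69666171-69666420 (minus strand) for Cd68, chr19:11336147-11336396 (minus strand) for Ms4a7, chr11:46810549-46810798 (plus strand) for Timd4, chrX:96293439-96293688 (minus strand) for Vsig4, chr10:117282273-117282522 (minus strand) for Lyz2 and chr10:117292869-117293118 (minus strand) for Lyz1.
Cd68: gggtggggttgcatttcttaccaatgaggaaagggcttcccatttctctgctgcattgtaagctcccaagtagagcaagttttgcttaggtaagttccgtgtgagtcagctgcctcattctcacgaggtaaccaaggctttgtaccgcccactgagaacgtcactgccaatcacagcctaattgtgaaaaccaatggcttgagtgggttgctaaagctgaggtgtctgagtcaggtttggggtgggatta
Ms4a7: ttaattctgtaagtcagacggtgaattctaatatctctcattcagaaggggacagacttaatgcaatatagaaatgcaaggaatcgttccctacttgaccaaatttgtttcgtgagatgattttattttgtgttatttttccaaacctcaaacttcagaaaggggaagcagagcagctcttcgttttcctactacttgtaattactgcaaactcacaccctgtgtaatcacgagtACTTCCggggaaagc
Timd4: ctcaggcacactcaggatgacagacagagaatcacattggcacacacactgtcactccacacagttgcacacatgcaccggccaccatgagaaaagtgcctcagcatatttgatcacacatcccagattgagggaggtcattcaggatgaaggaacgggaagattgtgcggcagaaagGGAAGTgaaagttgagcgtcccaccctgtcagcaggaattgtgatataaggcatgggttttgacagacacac
Vsig4: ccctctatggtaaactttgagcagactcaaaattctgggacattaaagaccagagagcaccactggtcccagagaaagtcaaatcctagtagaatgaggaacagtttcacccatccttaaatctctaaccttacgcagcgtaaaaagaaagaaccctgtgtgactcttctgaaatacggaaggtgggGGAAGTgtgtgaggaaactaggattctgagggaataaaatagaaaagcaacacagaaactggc
Lyz2: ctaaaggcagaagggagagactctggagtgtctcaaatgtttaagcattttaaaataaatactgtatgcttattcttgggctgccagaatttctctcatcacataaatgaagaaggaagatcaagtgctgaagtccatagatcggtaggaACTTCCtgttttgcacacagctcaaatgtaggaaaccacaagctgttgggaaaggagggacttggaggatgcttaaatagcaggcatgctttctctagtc
Lyz1: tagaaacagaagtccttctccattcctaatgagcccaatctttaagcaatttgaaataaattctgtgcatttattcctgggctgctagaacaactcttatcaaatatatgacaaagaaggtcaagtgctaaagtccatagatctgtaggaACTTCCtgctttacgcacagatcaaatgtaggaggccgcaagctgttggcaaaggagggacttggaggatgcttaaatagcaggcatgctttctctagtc

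The letters GGAAGT or ACTTCC stood in 6485 of all 32851 such RefSeq windows (19.7%), and in 5 of the 9 windows that 8 of the 10 genes had (Mrc1, Lyz2, Timd4, Vsig4 and the first of 2 Ms4a7 starts). The windows of Cd68, Cd163, Mertk and the second Ms4a7 start did not hold these letters, which were chosen after the sequences had been seen. The Lyz2 and Lyz1 windows were identical at 205 of 250 bases (82.0%), with a longest shared run of 50 bases, and both held ACTTCC.

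Library depth and tissue makeup set the frame for these values. The libraries held 44995414 to 58526384 assigned counts, and the spread between replicates across all genes corresponded to a biological coefficient of variation of 0.245 in skin and 0.215 in SI. The summed counts of 6 enterocyte markers were 8.72 to 13.6 in skin controls 1 and 3 but 11950 in skin control 2, and they were 247, 282 and 8.48 in skin IMQ 4, 5 and 6, so control 2 carried by far the most enterocyte transcripts of the skin libraries. In addition, the summed hair follicle markers were 2178 in control 2 against 55960 and 94650 in controls 1 and 3. In SI, control 9 had the highest sum of 5 B cell markers, 1919 against 747 to 1314 in the other 4 libraries. Counts are given below after scaling to the library size of their tissue, so that they compare libraries within skin or within SI, whereas FPKM (fragments per kilobase of transcript, scaled to library size) is used to set genes or tissues side by side.

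Lyz2, which encodes the lysozyme of macrophages and neutrophils, had the highest FPKM of the 10 genes in each of the 4 groups. In control skin its FPKM was 292 ± 44.0 (SD, n = 3), and the genes below it were Csf1r (38.3 ± 9.41), Mrc1 (27.4 ± 10.4), Cd68 (26.2 ± 5.80), Cd163 (13.3 ± 7.18), Adgre1 (9.23 ± 3.44), Ms4a7 (9.03 ± 1.68), Mertk (3.63 ± 0.481), Timd4 (0.855 ± 0.508) and Vsig4 (0.132 ± 0.0361). In that order Csf1r, Mrc1 and Cd68 overlapped each with the next between libraries, as did Cd163, Adgre1 and Ms4a7. In control SI, Lyz2 (134 ± 15.2) was followed by Csf1r (20.6 ± 5.64) and then by Mertk (14.2 ± 1.44), while Mrc1 (2.25 ± 0.399) and Cd163 (0.482 ± 0.110) were near the bottom. Under IMQ, Adgre1 moved to the second place in skin at an FPKM of 66.9 ± 7.12 (n = 3), and Cd68 moved to the second place in SI at 36.6 ± 2.30 (n = 2), each without overlap with the gene below it.

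**Figure D1:**
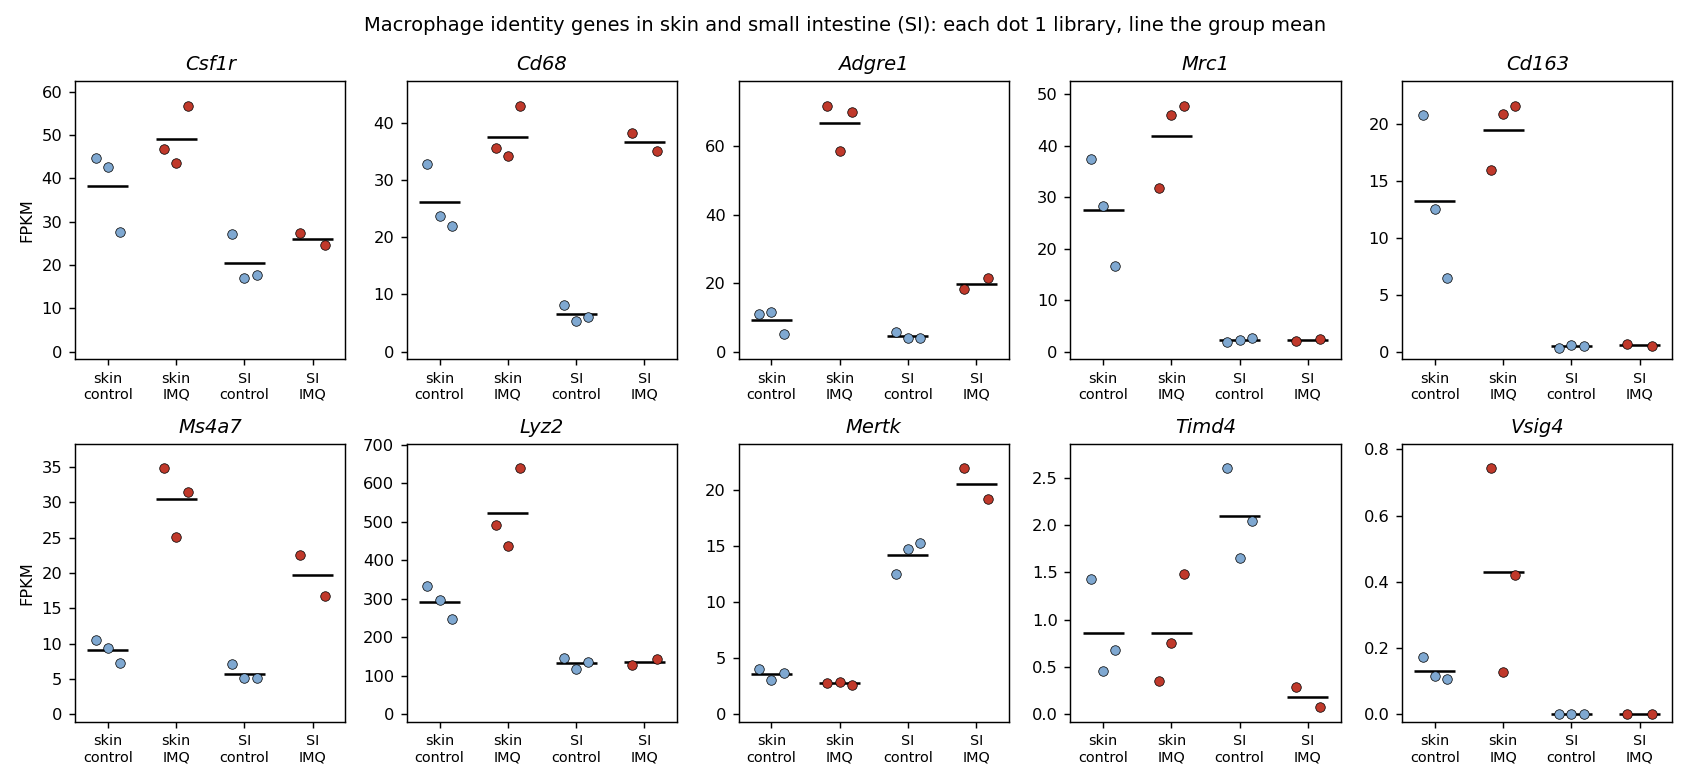
FPKM of the 10 macrophage genes (vertical axis, a separate scale for each gene) in control and IMQ libraries of skin and SI, with 1 dot per library and a line at the group mean. Adgre1 and Ms4a7 are higher in every IMQ library than in every control library of both tissues, Cd68 rises from 6.54 to 36.6 in SI, Timd4 falls from 2.095 to 0.184 in SI, and Vsig4 is at 0 in all 5 SI libraries.

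Without IMQ, Cd163 and Mrc1 were lower in SI than in skin and Mertk was higher. Of the 9 genes with counts in all control libraries, Mertk and Timd4 were higher in SI and Cd68, Mrc1, Cd163 and Lyz2 were lower, where 26.2% of all 18890 genes tested were higher and 25.7% lower (edgeR's quasi-likelihood test, Benjamini-Hochberg adjusted p under 0.05). Because 51.9% of all genes passed in this comparison, the count of 6 is not a result about these genes, and their sizes are of more use. On scaled counts, the same 6 genes had groups that did not overlap (2 higher and 4 lower), as did 31.6% (higher) and 30.6% (lower) of all genes. On FPKM, Csf1r (27.5 to 44.7 in skin and 17.0 to 27.1 in SI) and Ms4a7 (7.23 to 10.5 and 5.07 to 7.07) did not overlap either. The limma fit on log2(FPKM + 0.01) called all 9 genes (8 with a pseudocount of 1, without Adgre1). It also called 10992 of all 18890 genes (10839 with a pseudocount of 1), so these counts are not a result about the 9 genes either. The folds that follow come from the fit of scaled counts and differ from the ratio of the FPKM values, so the log2 difference of the FPKM fit is given beside them.

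Cd163, the scavenger receptor that takes up hemoglobin bound to haptoglobin (chr6:124304636-124330529), showed the widest gap. Its FPKM was 20.8, 12.5 and 6.50 in control skin and 0.356, 0.556 and 0.534 in control SI, and the count fit put it 19.8-fold lower in SI (log2 difference -4.31, SE 0.45, adjusted p = 1.52e-04 by the same test; -4.63 on FPKM). Mrc1, the mannose receptor CD206 (chr2:14229414-14332023), was at an FPKM of 37.5, 28.2 and 16.6 in control skin and 1.81, 2.35 and 2.59 in control SI, and the count fit put it 8.92-fold lower (log2 difference -3.16, SE 0.32, adjusted p = 1.37e-04, same test, and -3.54 on FPKM). Both genes were thus lower in every SI library than in every skin library by a wide margin.

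Mertk, a receptor tyrosine kinase through which macrophages bind dying cells coated with Gas6 or protein S (chr2:128698915-128803162), went the other way. Its FPKM was 4.05, 3.11 and 3.73 in control skin and 12.6, 14.7 and 15.3 in control SI, and the count fit put it 5.30-fold higher (log2 difference 2.41, SE 0.14, adjusted p = 1.15e-05, same test, and 1.97 on FPKM). Timd4, which encodes the phosphatidylserine receptor TIM-4 (chr11:46810786-46844333), was 3.41-fold higher in SI (log2 difference 1.77, SE 0.41, adjusted p = 0.00814, and 1.42 on FPKM). Cd68 was 2.95-fold lower in SI (adjusted p = 9.60e-04) and Lyz2 was 1.59-fold lower (adjusted p = 0.0204, 0.0515 to 0.0708 without skin control 1, SI control 8 or SI control 9). Csf1r (log2 difference -0.45, 95% interval -1.09 to 0.19), Adgre1 (-0.56, -1.35 to 0.23) and Ms4a7 (-0.20, -0.76 to 0.35) did not pass the count test, whereas they were lower in SI by 0.90, 0.95 and 0.65 on the log2 scale in the FPKM fit (adjusted p = 0.0152, 0.0363 and 0.0278, limma). Genes on the opposite strand overlap Mertk (Gm14011) and Csf1r (Hmgxb3), and the handling of strand in the counting is not given in the sources used here, so the counts of these genes are uncertain to that extent.

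Vsig4, the complement receptor CRIg of resident macrophages (chrX:96247201-96293438), had no read in any SI library. In skin its raw counts were 15, 9 and 10 in the controls and 56, 10 and 31 under IMQ. The largest level that a count of 0 allows in SI (3 counts per library, counting error only) was 0.0625 CPM (raw counts scaled to the library total), so Vsig4 was at least 3.62-fold lower in SI than the mean of control skin (0.226 CPM) and at least 11.3-fold lower than the mean of IMQ skin (0.705 CPM). It was therefore not tested in any comparison that includes SI. Marco, another receptor of some resident macrophages, was also at a count of 0 in all 5 SI libraries, and Clec4f, a mark of liver macrophages, was at 0 in all 11 libraries.

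In skin, IMQ raised 3 of the 10 genes, Adgre1, Ms4a7 and Lyz2, at an adjusted p under 0.05 (same test), where 4.05% of all 20512 genes tested were called higher and 6.74% were called in either direction. By this test 0 of the 10 were called lower, as 2.69% of all genes were. DESeq2 and limma-voom also called 0 lower, and 1 gene (Mertk) was lower and 5 were higher at an unadjusted p under 0.05. On scaled counts, IMQ and control libraries did not overlap for 5 higher genes (the 3 above, Csf1r and Cd68, beside 15.1% of all genes). The same held for 1 lower gene (Mertk, beside 13.3% of all genes). On FPKM, however, Csf1r overlapped (27.5 to 44.7 in the controls and 43.7 to 56.8 under IMQ). The median log2 fold change of the 10 genes was 0.62, beside -0.01 over all genes tested.

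Adgre1, the gene of the F4/80 antigen, an adhesion G protein-coupled receptor (chr17:57358581-57483529), had the largest response. Its normalized counts were 1846, 2045 and 876 in control skin and 13253, 10408 and 11308 in IMQ skin, a 7.34-fold rise (log2 fold change 2.88, SE 0.32, 95% interval 2.11 to 3.64, adjusted p = 0.00624, same test). The lowest IMQ library was well above the highest control. In bulk tissue, more cells of a type and more RNA per cell cannot be told apart, here or in the comparisons that follow. Without skin control 2, the skin library with the most enterocyte transcripts, the log2 fold change was 3.10 (adjusted p = 0.00778).

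Ms4a7, a membrane-spanning protein of the MS4A family that is strongly expressed in mature macrophages (chr19:11321039-11336146), had 739, 703 and 499 normalized counts in control skin and 2661, 1841 and 2244 in IMQ skin. It rose 3.47-fold (log2 fold change 1.80, SE 0.21, 95% interval 1.31 to 2.28, adjusted p = 0.00652; 1.86 and 0.0103 without skin control 2), again with no overlap between the groups. Lyz2 (chr10:117277541-117282272) had 18465, 17556 and 13454 normalized counts in the controls and 29766, 25420 and 36127 under IMQ, a 1.85-fold rise (log2 fold change 0.88, SE 0.19, adjusted p = 0.0442). The groups did not overlap, but the call of Lyz2 rested on all 6 libraries. Without any 1 of them its adjusted p was 0.0521 (control 2), 0.0900 (control 3), 0.102 (IMQ 5), 0.106 (IMQ 6), 0.116 (control 1) or 0.120 (IMQ 4).

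Csf1r, the receptor for colony-stimulating factor 1 and interleukin-34 (chromosome 18), had 9056, 9296 and 5508 normalized counts in control skin and 10349, 9312 and 11780 in IMQ skin. The ranges touched closely, between 9296 and 9312, and the difference did not pass the test (log2 fold change 0.40, 95% interval -0.12 to 0.92, adjusted p = 0.333). Cd68, a lysosomal glycoprotein of phagocytes (chr11:69664213-69666170), was at 2134, 1641 and 1409 normalized counts in the controls and 2521, 2337 and 2848 under IMQ (log2 fold change 0.57, 95% interval 0.16 to 0.98, adjusted p = 0.104), every IMQ library being higher. Skin control 3 was the lowest skin library for Csf1r, Cd68, Adgre1, Mrc1, Cd163, Ms4a7 and Lyz2.

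The remaining genes did not pass the test in skin. Mrc1 ranged over 4573 to 10413 normalized counts in the controls and 9653 to 13587 under IMQ (log2 fold change 0.65, 95% interval -0.07 to 1.37), and Cd163 over 1482 to 4809 and 4029 to 5142 (0.60, -0.31 to 1.51), so both overlapped. Mertk was at 965, 795 and 914 normalized counts in the controls and 720, 731 and 638 under IMQ, lower in each IMQ library (log2 fold change -0.36, 95% interval -0.68 to -0.04, adjusted p = 0.178). Timd4 gave 156, 56.7 and 75.8 against 43.7, 85.4 and 154 normalized counts (log2 fold change -0.03, 95% interval -1.32 to 1.27), which leaves room for a change of more than 2-fold either way. Vsig4 was spread from 10.3 to 61.2 normalized counts over the IMQ libraries beside 8.72 to 13.6 in the controls (log2 fold change 1.68, 95% interval 0.22 to 3.15, adjusted p = 0.165).

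In SI, IMQ raised Cd68, Adgre1 and Ms4a7 and lowered Timd4, which makes 4 of the 9 genes with counts in all 5 libraries. Of all 19965 genes tested there, 2.95% were called, 2.77% higher and 0.170% lower (same test). The groups did not overlap for 4 genes that were higher (those 3 and Mertk; 15.1% of all genes) and for Timd4, which was lower (13.9% of all genes). The median log2 fold change of the 9 genes was 0.38, beside -0.02 over all genes.

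Cd68 had 581, 358 and 452 normalized counts in control SI and 2714 and 2684 in IMQ SI. It rose 5.82-fold (log2 fold change 2.54, SE 0.20, 95% interval 2.07 to 3.02, adjusted p = 7.94e-04, same test), and the IMQ libraries were close to each other. Adgre1 had 1100, 675 and 794 normalized counts in control SI and 3351 and 4306 under IMQ, a 4.47-fold rise (log2 fold change 2.16, SE 0.22, 95% interval 1.64 to 2.68, adjusted p = 0.00231). Ms4a7 had 555, 370 and 411 normalized counts in the controls and 1719 and 1384 under IMQ, a 3.48-fold rise (log2 fold change 1.80, SE 0.21, 95% interval 1.31 to 2.29, adjusted p = 0.00419). Control 7 was the highest control for all 3 genes and was still far below both IMQ libraries.

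Timd4 had 331, 193 and 254 normalized counts in control SI and 35.4 and 11.1 in IMQ SI. It fell 10.9-fold (log2 fold change -3.44, SE 0.52, 95% interval -4.66 to -2.23, adjusted p = 0.0142, same test), with both IMQ libraries below every control. The raw counts behind it were 305, 191 and 275 in the controls and 39 and 10 under IMQ, and the IMQ libraries differed between themselves by more than the controls did, so the size of the fall depends on the library: -4.52 without IMQ 10 and -2.87 without IMQ 11. Without control 9, which had the highest B cell marker sum, the log2 fold change was -3.46 with an adjusted p of 0.0556. The summed B cell markers overlapped between the groups (747 to 1919 in the controls and 1127 to 1314 under IMQ), and the summed dendritic cell markers were 1227 to 1444 in the controls and 1551 to 2266 under IMQ. Single markers differed from these sums: the B cell gene Ms4a1 was at 18.4 to 359 normalized counts in the controls and at 16.6 to 52.7 under IMQ, with overlap, and Siglech, a mark of plasmacytoid dendritic cells, had a log2 fold change of -1.39 (adjusted p = 0.253 by edgeR and 0.0335 by DESeq2). The part of these cells in the fall of Timd4 was not tested.

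Mertk was higher in each IMQ library of SI, with 3389, 3628 and 4199 normalized counts in the controls and 5705 and 5413 under IMQ, but did not pass the test over all genes (log2 fold change 0.57, 95% interval 0.25 to 0.89, adjusted p = 0.0932). Csf1r had 6157, 3582 and 4124 against 6101 and 5911 normalized counts, and the ranges overlapped (log2 fold change 0.38, 95% interval -0.16 to 0.91). Lyz2 stayed between 6771 and 9350 normalized counts in all 5 libraries, with a log2 fold change of 0.05 and a 95% interval of -0.36 to 0.47. Mrc1 (log2 fold change 0.05, 95% interval -0.44 to 0.54) and Cd163 (0.23, -0.45 to 0.92) also had overlapping groups.

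**Figure D2:**
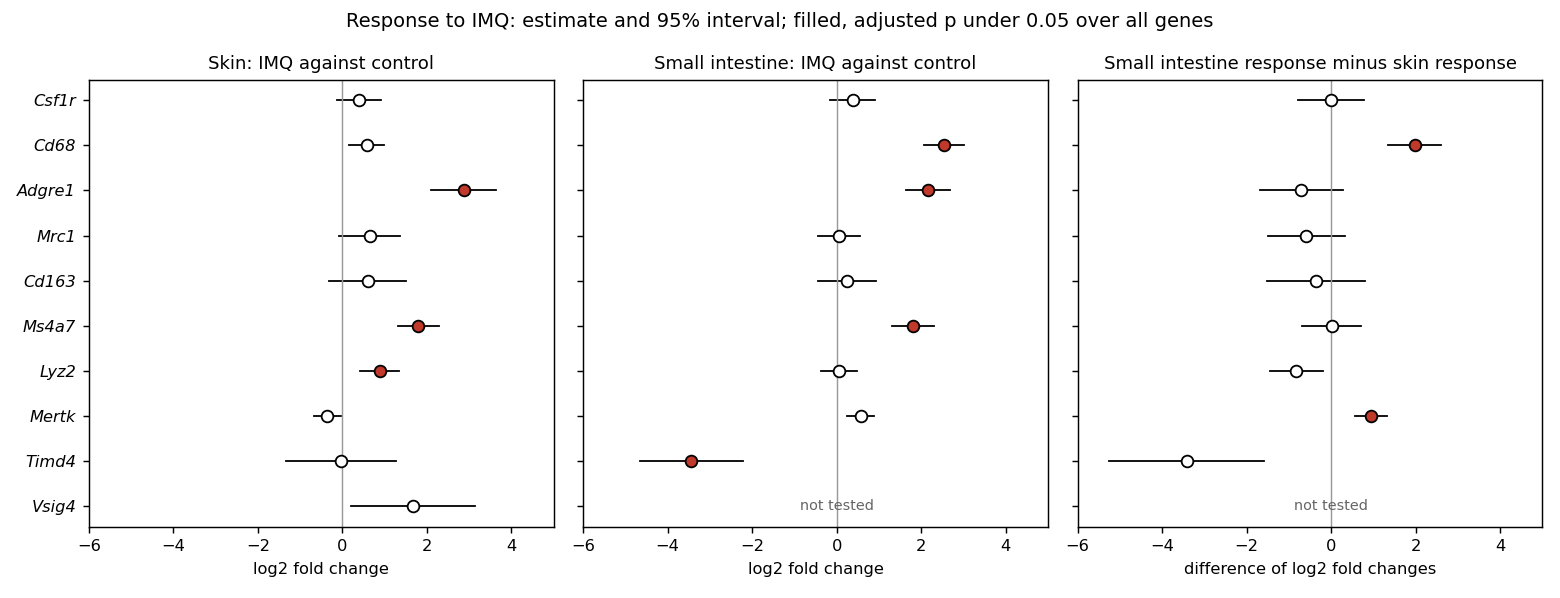
Log2 fold change of IMQ against control in skin and in SI, and the difference between these responses (SI minus skin), for each macrophage gene (horizontal axis, log2), with lines for the 95% interval and filled points where the adjusted p was under 0.05. Adgre1 and Ms4a7 are filled in both tissues, Lyz2 in skin, Cd68 and Timd4 in SI, and Cd68 (1.97) and Mertk (0.93) in the panel of differences; Vsig4 was not tested in SI.

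Whether a gene responded differently in SI and skin was tested directly as an interaction of tissue and treatment over all 11 libraries, taken as independent samples. Of the 9 genes tested, Cd68 and Mertk passed, where 2.55% of all 18108 genes did (1.70% with a higher response in SI and 0.856% with a lower one). The response of Cd68 was larger in SI by 1.97 on the log2 scale (SE 0.29, 95% interval 1.34 to 2.61, adjusted p = 0.00667), and that of Mertk was larger by 0.93 (SE 0.17, 95% interval 0.56 to 1.31, adjusted p = 0.0184), since the Mertk estimate was below 0 in skin and above 0 in SI. The call of Mertk was lost without skin control 1, skin IMQ 5, SI control 8, SI IMQ 10 or SI IMQ 11 (adjusted p 0.0508 to 0.0890), which left only Cd68 in each case.

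For Timd4 the response in SI was lower than in skin by -3.42 on the log2 scale, with a wide interval of -5.26 to -1.58 and an adjusted p of 0.0592. It passed with DESeq2 (-3.44, adjusted p = 6.46e-04) and without skin IMQ 4 (-3.77, adjusted p = 0.0470), so whether the fall of Timd4 differs between the tissues depends on the test and on that library. The rise of Lyz2 in skin was likewise not shown to differ from SI (difference -0.82, 95% interval -1.45 to -0.19, adjusted p = 0.172). Ms4a7 (0.01, -0.68 to 0.70), Csf1r (-0.01, -0.80 to 0.77) and Adgre1 (-0.70, -1.68 to 0.27) had responses whose difference between tissues did not pass, and the intervals still allow differences of 0.70 or more on the log2 scale. The differences of Mrc1 (-0.59) and Cd163 (-0.36) did not pass either.

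Set against Csf1r in the same library, the levels of several of these genes differed between control and IMQ libraries. Which cells of the whole tissue gave these transcripts, or those of Csf1r, was not tested. In SI, the FPKM of Cd68 was 30.2% to 34.5% of that of Csf1r in the controls and 139% and 142% under IMQ. Timd4 was 9.60% to 11.6% of Csf1r in control SI and 0.311% and 1.06% under IMQ. Adgre1 went from a mean of 22.5% to 76.7% of Csf1r in SI and from 23.5% to 137% in skin, and Ms4a7 from 28.3% to 75.0% in SI and from 23.9% to 62.4% in skin, with no overlap between groups in any of these 4 comparisons.

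In skin the Lyz2 FPKM was 778% of that of Csf1r in the controls and 1060% under IMQ, without overlap, while the ratio of Mertk was 9.96% and 5.73%, lower in each IMQ library. The Cd68 ratio of skin overlapped (means 69.6% and 76.7%), unlike that of SI. The skin ratios of Mrc1 (70.1% and 85.7%), Cd163 (33.2% and 40.0%), Timd4 (2.24% and 1.69%) and Vsig4 (0.35% and 0.87%) overlapped too. In SI the ratios of Lyz2 (672% and 522%), Mertk (73.4% and 79.0%), Mrc1 (11.7% and 8.71%) and Cd163 (2.54% and 2.11%) overlapped. These ratios are descriptions, since 3 against 3 or 3 against 2 values cannot reach an exact permutation p under 0.05. The share of all genes whose ratio to Csf1r did not overlap was not computed. On scaled counts, groups did not overlap for 15.1% (higher) and 13.3% (lower) of all genes in skin, and for 15.1% and 13.9% in SI.

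**Figure D3:**
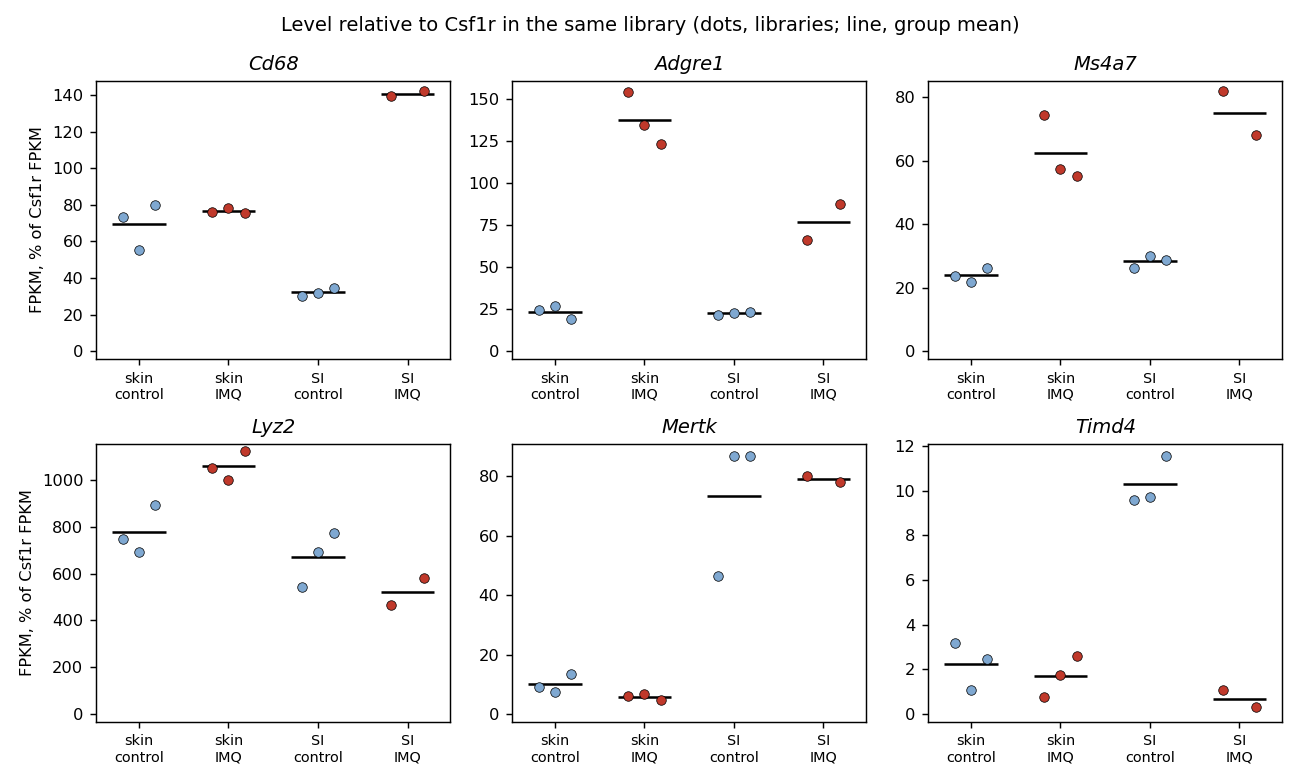
FPKM of 6 macrophage genes as a percentage of the FPKM of Csf1r in the same library (vertical axis), with 1 dot per library and a line at the group mean, in control and IMQ libraries of skin and SI. In SI, Cd68 goes from 32.1% to 141% of Csf1r and Timd4 from 10.3% to 0.686%, whereas Cd68 of skin overlaps between the groups.

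Lyz2 needs to be read beside Lyz1, its neighbour on chromosome 10 (chr10:117287795-117292868), which encodes the lysozyme of Paneth cells. In SI the FPKM of Lyz2 was 2.98%, 2.67% and 3.25% of that of Lyz1 in the controls and 3.76% and 4.65% under IMQ, so Lyz1 dominated there, whereas in skin Lyz2 was at 431% to 1117% of Lyz1 in the controls and 3898% to 5090% under IMQ. Of 1217 windows of 100 bases along the Lyz2 transcript, 24 (1.97%) were identical in Lyz1, and the longest run that both share was 118 bases. How reads that fit both were assigned is not given in the sources used here, so the SI level of Lyz2 is uncertain. Lyz1 itself fell in skin, from 1979, 4873 and 2214 to 700, 781 and 1085 normalized counts (log2 fold change -1.82, SE 0.38, adjusted p = 0.0374, same test). Its highest control was control 2, the skin library with the most enterocyte transcripts.

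The other genes of macrophage biology were taken as lists, which were also chosen with earlier results of these data known. The counts called in these lists and in the cell marker lists below stand beside the shares of all genes called. These were 4.05% higher and 2.69% lower in skin, and 2.77% higher and 0.170% lower in SI. Among 14 transcription factors of macrophages, 2 rose in skin and 3 rose in SI. Spi1, which encodes PU.1, the master regulator of the myeloid lineage, had mean normalized counts of 1179 ± 120 and 2799 ± 483 in control and IMQ skin (n = 3 each; log2 fold change 1.25, adjusted p = 0.00961) and 547 ± 166 (n = 3) and 2946 ± 113 (n = 2) in SI (2.43, adjusted p = 0.00176). Spic, a factor of red pulp and other iron-handling macrophages, rose by 2.31 on the log2 scale in skin (adjusted p = 0.0121) and by 4.11 in SI (adjusted p = 0.00682), from a low level of 6.77 ± 4.62 normalized counts in control SI. Zeb2 rose in SI (1.24, adjusted p = 0.00247). The median of the list was 0.31 in skin and 0.47 in SI, and its count in skin was 0 without control 1 and 1 without IMQ 5.

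The MS4A family, to which Ms4a7 belongs and most of which lies in a cluster with it on chromosome 19, had 10 other genes tested in skin and 14 in SI. In skin 6 of the 10 rose, among them Ms4a6b (log2 fold change 1.79, adjusted p = 0.00362), Ms4a6c (1.95, adjusted p = 0.00535), Ms4a4c (1.73, adjusted p = 0.00677) and Ms4a14 (1.95, adjusted p = 0.00770). In SI 4 of the 14 rose, namely Ms4a6c (2.71, adjusted p = 3.85e-04), Ms4a6d (2.90, adjusted p = 8.48e-04), Ms4a4c (3.29, adjusted p = 0.00233) and Ms4a6b (1.5, adjusted p = 0.00368). The family medians were 1.30 in skin and 0.25 in SI. By TMM and by upper-quartile scaling 6 rose in skin and 4 in SI. In skin 4 rose without IMQ 5 and 4 without IMQ 6. The Ms4a4 and Ms4a6 genes are close paralogs, and counts between them are uncertain.

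**Figure D4:**
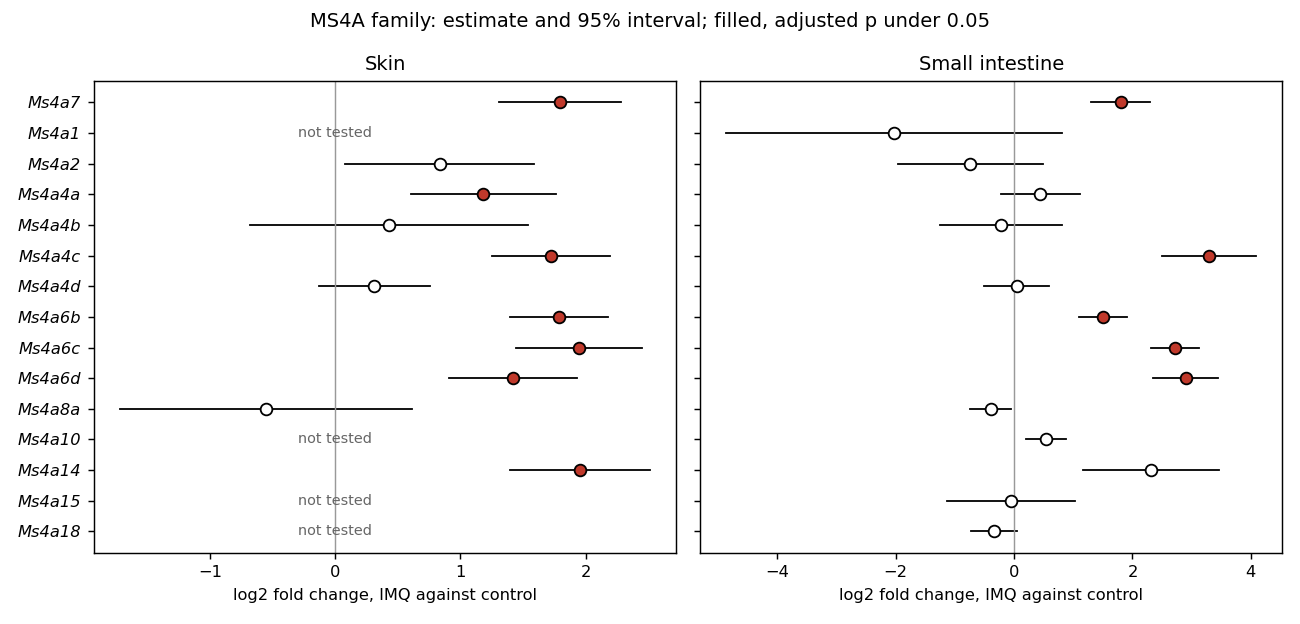
Log2 fold change of IMQ against control (horizontal axis) for Ms4a7 and other genes of the MS4A family in skin and SI, with lines for the 95% interval and filled points where the adjusted p was under 0.05. Besides Ms4a7, 6 genes are filled in skin and 4 in SI, with Ms4a4c the highest in SI at 3.29.

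Receptors that bind dying cells or foreign particles rose in part in skin. Of 14 genes of apoptotic cell uptake other than Mertk and Timd4, 2 rose in skin, Stab1 (log2 fold change 1.38, adjusted p = 0.0306), a scavenger receptor, and Elmo1 (0.61, adjusted p = 0.0348), part of the engulfment machinery. In SI 0 of 14 passed by edgeR, DESeq2 or limma-voom, and 3 were higher at an unadjusted p under 0.05. The medians of this list were 0.13 in skin and 0.33 in SI. Of 14 scavenger receptors and lectins of resident macrophages other than Mrc1, Cd163 and Vsig4, 4 rose in skin, Cd14 (2.14, adjusted p = 0.00406), Cd209g (1.81, adjusted p = 0.0342), Msr1 (1.04, adjusted p = 0.0423) and Cd209f (1.63, adjusted p = 0.0447). In SI 0 of 10 passed by edgeR or limma-voom, DESeq2 called 1 higher and 2 lower, and 2 were higher and 3 lower at an unadjusted p under 0.05. The medians were 0.82 in skin and 0.01 in SI, and the Cd209 genes are close paralogs whose counts are uncertain.

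These skin counts depended on single libraries. For uptake, 1 gene was called without control 1 and 0 without control 3, IMQ 4, IMQ 5 or IMQ 6. For scavenger receptors, 2 were called without control 2 and 1 without control 3, IMQ 4, IMQ 5 or IMQ 6, and in SI 1 without IMQ 10. Cd5l, a secreted scavenger protein that resident macrophages make, had a count of 0 in the 3 SI controls and 77 and 42 raw counts in the IMQ libraries of SI, and it was not tested there because of the zeros.

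Lysosomal genes, the compartment of Cd68, included 4 of 20 that rose in skin and 7 of 19 that rose in SI. In SI the smallest p-values were those of the protease gene Ctsl (log2 fold change 1.84, adjusted p = 6.39e-04), Grn (1.14, adjusted p = 0.00361), Lgmn (1.15, adjusted p = 0.00468) and Ctss (0.92, adjusted p = 0.0110). In skin they were Ctsc (1.46, adjusted p = 0.0115), Lgmn (1.16, adjusted p = 0.0140), Ctss (1.01, adjusted p = 0.0419) and Lipa (0.63, adjusted p = 0.0442). The medians were 0.35 in skin and 0.49 in SI. The skin count was 2 without control 1, 1 without IMQ 4, 1 without IMQ 5 and 2 without IMQ 6, DESeq2 called 9, and the SI count was 4 without control 8, 4 without control 9, 3 without IMQ 10 and 3 without IMQ 11.

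The ligands of Csf1r, Csf1 and Il34, did not pass edgeR's test in either tissue (log2 fold changes of 0.20 and -0.23 in skin and 0.21 and 0.67 in SI), although DESeq2 called Il34 in SI (adjusted p = 0.0424). Of the 5 genes of this axis, Csf2rb, the shared chain of the GM-CSF receptor, rose in skin (1.0, adjusted p = 0.0323; 0 genes were called without control 1, control 3 or any of the 3 IMQ libraries). In SI Csf2ra (1.35, adjusted p = 0.00538) and Csf2rb (1.25, adjusted p = 0.0127) rose, with 1 gene called without control 9, 0 without IMQ 10 and 1 without IMQ 11.

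Markers of leukocytes at large were followed as well. All 6 pan-leukocyte markers tested rose in both tissues, with a median log2 fold change of 1.25 in skin and 1.92 in SI, and their summed normalized counts went from 15340 to 20860 in control skin to 38100 to 52720 in IMQ skin and from 9882 to 13430 in control SI to 43070 to 45190 in IMQ SI. In skin the count was 1 without control 1 and 1 without IMQ 5. The response of Adgre1 in both tissues and of Cd68 in SI was above these medians, and that of Csf1r was below them, without a test of the difference. The part of leukocyte number in the members' changes was not tested.

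Neutrophils also carry Lyz2. The summed counts of 10 neutrophil markers went from 829 to 1171 in control skin to 179600 to 226000 in IMQ skin, where 6 of 7 tested genes rose, and from 447 to 499 in control SI to 1956 to 1980 in IMQ SI, where 2 of 6 rose (1 without any 1 library) and the defining markers Ly6g and Ngp had no count under IMQ. S100a8 and S100a9, which inflamed keratinocytes also make, gave nearly all of the sum in IMQ skin (65443 to 81593 and 108797 to 137277 normalized counts under IMQ). In a sum added after the data were seen, the other 8 markers came to 553 to 936 in control skin and 5395 to 7104 in IMQ skin, and to 445 to 481 and 1905 to 1917 in SI, while Ly6g was at 0 to 9.26 normalized counts in IMQ skin. These markers did not move together in SI. By DESeq2 the log2 fold change there was 3.21 for Csf3r, 2.25 for S100a9 (adjusted p = 0.0625) and 1.87 for Mmp8 (no adjusted p given). It was -0.07 for Retnlg, -0.24 for Cxcr2 and 0.18 for Ltf. The part of neutrophils in the members' changes was not tested.

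Of 9 dendritic cell markers in skin 1 rose (Batf3, 1.87), with 0 called without control 1 or IMQ 5 and 1 lower beside it without control 3. Of 8 in SI 2 rose (Batf3, 3.07, and Xcr1, 1.15), with 1 higher without any 1 library. Of 5 mast cell markers 3 rose in skin, with 0 called without control 1 or IMQ 5 and 1 without control 3 or IMQ 4. Cd207, the Langerhans cell mark, was present in every skin library and at 0 in all SI libraries. Summed eosinophil markers overlapped between control and IMQ libraries in both tissues (132 to 289 and 76.1 to 154 in skin, 245 to 549 and 274 to 345 in SI), as did summed T cell markers in skin, whereas in SI the T cell sum was 1552 to 2442 in the controls and 1446 to 1518 under IMQ. The labelled tissues held their own markers: the summed keratinocyte markers were 599400 to 1708000 in skin and 17300 to 22950 in SI. In SI the summed enterocyte markers were 728600 to 1184000 in the controls and 1356000 to 1624000 under IMQ. However, 0 of these 6 markers passed edgeR's test, only 2 had estimates above 0, and their median log2 fold change was -0.13. The summed Paneth cell markers of SI were 713700 to 868100 in the controls and 563800 to 576400 under IMQ, where 0 of 6 passed and the median was -0.45. The summed B cell markers of skin were 30.5 to 81.8 in the controls and 331 to 365 under IMQ, where 1 of 2 tested genes rose. The part of these cells in the members' changes was not tested.

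The genes whose profile over the 11 libraries lay nearest to that of a macrophage gene were found by the root mean square difference of log2(CPM + 1), each profile centred on its mean, among 16335 genes. For Csf1r they were Epas1 (0.156), Pros1 (0.194) and Fgd5 (0.202). For Ms4a7 they were Dok3 (0.190), C3ar1 (0.205) and A630001G21Rik (0.215). Those of Adgre1 were farther, namely Clec12a (0.284), Csf3r (0.372), a neutrophil marker above, and AB124611 (0.414). Those of Timd4 were the farthest of these, with Cd74 at 0.484, Siglech at 0.532 and H2-Eb1 at 0.564. The distance mixes tissue, treatment and library depth, and it says nothing about which cells express the genes.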

How the data were processed

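RNA from skin and small intestine was extracted with QIAzol and RNeasy and treated with DNase I. According to the study's methods, stranded mRNA libraries were sequenced as 100-bp paired reads, and the submitters' processing notes name bcl2fastq 2.20.0, Trimmomatic, HISAT2 2.1.0, StringTie 2.1.3b and mm10. The authors deposited read counts per gene without normalization, and the step from StringTie to counts is not given in the sources used here. The same deposited table holds the authors' FPKM, scaled by transcript length and library size, and the authors' TPM, which was not used.

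Counts were scaled by relative log expression and tested with edgeR 4.0.16 (R 4.3.3) by quasi-likelihood, using genes whose count was 1 or more in all libraries compared, with Benjamini-Hochberg adjustment over all genes and a threshold of 0.05. The interaction used all 11 libraries. Intervals of 95% used edgeR's total degrees of freedom, the residual ones plus those borrowed from all genes. The estimate was taken plus or minus 2.37 SE in skin, 2.35 in SI, 2.21 for the interaction and 2.33 between the control tissues. Alternatives were TMM and upper-quartile scaling, DESeq2 1.42.0, limma 3.58.1 (voom, and log2 of FPKM plus 0.01 or 1), other filters, one fit of all libraries, and leaving out each library. Scripts were tested on simulated data.

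The 10 members, the Lyz2 paralog and the lists were chosen with earlier results of these data known. All members were named, with at most the 4 called genes of smallest p per list and tissue, and the 3 nearest profiles of Csf1r and 3 other members. Some genes were named after their values were seen, namely Csf1, Il34, Cd5l, Marco, Clec4f, Cd207, Ly6g, Ngp, Retnlg, Cxcr2, Ltf, Mmp8, Ms4a1 and Siglech. Positions and sequences come from RefSeq GRCm38.p6, which matched 45679 genes by Entrez identifier. The list of classical monocyte markers is not reported here.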

Additional observations from a re-analysis of the deposited data

Results flagged for a closer look

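The response of Cd68 to IMQ differed between the tissues by the test of the interaction itself. It was larger in SI than in skin by 1.97 on the log2 scale, with normalized counts of 358 to 581 in control SI and 2684 to 2714 in IMQ SI, beside 1409 to 2134 in control skin and 2337 to 2848 in IMQ skin.

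The response of Mertk also differed between the tissues by the same test, by 0.93 on the log2 scale. This call was not stable to leaving out 1 library, as given above, and it was lost in both FPKM fits. All 3 IMQ libraries of skin were below the controls (638 to 731 against 795 to 965 normalized counts), and both IMQ libraries of SI were above them (5413 to 5705 against 3389 to 4199), although Mertk passed the test in neither tissue alone.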

How the results depend on the processing

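Adgre1 and Ms4a7 in both tissues, Cd68 in SI and the Cd68 difference between tissues passed the threshold in every alternative and without any 1 library. Over the fits that leave out 1 library, the log2 fold change of Adgre1 was 2.58 to 3.10 in skin and 1.97 to 2.39 in SI, of Ms4a7 1.63 to 1.92 and 1.64 to 1.995, of Cd68 in SI 2.39 to 2.74 and of Timd4 in SI -4.52 to -2.87. With a pseudocount of 1 on FPKM, Timd4 in SI was -1.38, as the pseudocount compresses low values. Lyz2 in skin also missed the threshold with no filter on low counts (adjusted p = 0.0525) and in limma on log2 FPKM (0.0739 and 0.0849). Cd68 in skin passed with DESeq2 (0.0449), and Mertk in SI with DESeq2 (0.0107) and in 1 fit of all 11 libraries (0.0401). Members called numbered 2 to 4 in skin, 3 to 5 in SI and 5 to 9 between the control tissues. The fit that called 9 there called 10992 of all 18890 genes. For the difference between tissues, 1 member was called in both FPKM fits against 2 in the main result, 3 with DESeq2 (Timd4 in addition, adjusted p = 6.46e-04) and 1 to 3 without 1 library. In the lists, DESeq2 called 9 lysosomal genes of skin against 4 and 5 transcription factors of skin (4 higher, 1 lower) against 2, and upper-quartile scaling called 1 dendritic cell marker of SI against 2, as DESeq2 and limma-voom did 1 neutrophil marker of SI against 2.

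Estimates near 0 changed sign. Mrc1 in SI was -0.0116 with upper-quartile scaling and -0.11 to 0.20 without 1 library, Lyz2 in SI was -0.0026 and -0.0911 to 0.192, and Timd4 in skin was -0.57 to 0.50 without 1 library. The Ms4a7 difference between tissues was -0.0307 with upper-quartile scaling, -0.0358 with FPKM plus 1 and -0.14 to 0.21 without 1 library, and that of Csf1r was -0.17 to 0.26. Upper-quartile scaling moved the median of all genes by -0.135 between control SI and control skin. The cause of the other changes was not tested. No paired analysis was possible because the replicate numbers 1 to 11 are all different, so the groups share none, and the labels do not say which libraries came from the same mouse. With 2 to 3 libraries per group, small differences were not detectable and 2-fold ones were often missed. In the simulated data, with 1 spread set for all genes, 56% of changes of 1 on the log2 scale were called in skin and 42% in SI. Changes of 2 were called in 100% of cases in both. Only genes with higher expected counts were changed there, so these rates need not hold for real genes of wider spread or fewer reads. In real skin, 0 of 5 tested hair follicle markers passed edgeR's test, although their median log2 fold change was -3.84. Timd4 in skin and Vsig4 rest on few reads.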
